A study of Homo sapiens with 14 samples.

Results

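KLK2, KLK3 and KLK4, the prostatic kallikreins, were selected by gene symbol and made up 3 of the 62703 genes in the count table. KLK3 encodes prostate-specific antigen, the serum marker of prostate cancer, KLK2 encodes a closely related protease that can cleave the prostate-specific antigen precursor, and KLK4 encodes prostase, which can activate other kallikreins. All are secreted serine proteases of the prostate epithelium, made as inactive precursors that are switched on by removal of a short leader. Their transcription in prostate cells is known to depend on androgens, which act through response elements in promoters and enhancers and through the Mediator complex. CDK8 and its paralog CDK19 are the kinases of a Mediator module that also holds cyclin C, MED12 and MED13.

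To examine how inhibition of these kinases affects prostate cancer cells, RNA was profiled by 3′ tag sequencing (BRB-seq, in which each RNA sample receives a barcode at reverse transcription and libraries are pooled) in 3 cell lines grown in medium with serum. LNCaP cells are androgen-dependent and enzalutamide-sensitive, 22Rv1 cells are enzalutamide-resistant, and PC3 cells are androgen-independent. SEL120-34A, which inhibits both kinases, was given at 1.5 µM for 3 days and compared with its vehicle DMSO. LNCaP and 22Rv1 had 3 libraries in each arm and PC3 had 1. Each line is a single established culture model, and the labels do not say whether libraries of an arm came from separate cultures. The p-values of the gene tests measure an effect against the spread between these libraries, and that spread was estimated partly from other genes. Total counts ranged from 246063 to 909176 per library. In both replicated lines the inhibitor arm was the shallower one, with 291056 to 519928 counts against 412881 to 759548 in LNCaP and 246063 to 368778 against 476455 to 777207 in 22Rv1. Levels are given as CPM, counts scaled to a common library size with a correction for library composition. The summed level of 4 markers of PC3 cells (VIM, CAV1, CD44 and KRT7) was 20.9 to 55.9 CPM in LNCaP DMSO, 56.9 to 72.8 CPM in 22Rv1 DMSO and 2856 CPM in the PC3 DMSO library. For 7 markers of luminal prostate epithelium (HOXB13, FOXA1, TMPRSS2, FOLH1, KRT8, KRT18 and EPCAM) the sum was 2903 to 3091 CPM in LNCaP DMSO. It was 1660 to 1830 CPM in 22Rv1 DMSO and 1877 CPM in the PC3 DMSO library, so these markers did not set PC3 below 22Rv1. The summed level of 8 leukocyte, stromal and endothelial markers was at most 21.0 CPM in any DMSO library of LNCaP and 3.58 CPM in 22Rv1, and 96.9 CPM in that of PC3, nearly all of it COL1A1.

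The genes lie together on chromosome 19 (GRCh38). KLK3 (ENSG00000142515.16) occupies 50854915 to 50860764 and KLK2 (ENSG00000167751.13) 50861568 to 50880567, both on the plus strand with 803 bases between them as GENCODE annotates the genes. KLK4 (ENSG00000167749.12) occupies 50906351 to 50911395 on the minus strand, and the noncoding KLKP1 lies between KLK2 and KLK4. No other annotated gene overlaps the 3 gene bodies. Because the assay reads transcript 3′ ends and KLK2 and KLK3 are close paralogs, their sequences were compared: the last 500 bases of the reference transcript of each gene shared 0 of 451 50-base words with any transcript of the other 2 genes. Over the whole KLK3 transcript 11 of 1415 such words (0.777%) also occurred in KLK2, and none occurred in KLK4.

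The 250 bases before each RefSeq transcription start show how the promoters differ. For KLK2 this start lies inside the GENCODE gene body, which begins further upstream. The bases are printed 5′ to 3′ on the coding strand from RefSeq (GRCh38.p14), with the 6-base androgen response half-site motif NGAACA in capitals.
KLK3, chr19:50854665-50854914, plus strand: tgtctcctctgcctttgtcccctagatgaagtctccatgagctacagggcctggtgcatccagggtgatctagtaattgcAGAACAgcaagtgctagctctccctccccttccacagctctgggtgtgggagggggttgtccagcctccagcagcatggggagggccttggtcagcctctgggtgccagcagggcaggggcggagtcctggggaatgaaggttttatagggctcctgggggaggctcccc
KLK2, chr19:50873189-50873438, plus strand: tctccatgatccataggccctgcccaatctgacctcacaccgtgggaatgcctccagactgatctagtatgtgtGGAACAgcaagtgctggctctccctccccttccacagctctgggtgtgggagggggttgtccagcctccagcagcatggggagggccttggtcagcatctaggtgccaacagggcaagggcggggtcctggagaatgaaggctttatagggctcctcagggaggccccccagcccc
KLK4, chr19:50911396-50911645, minus strand: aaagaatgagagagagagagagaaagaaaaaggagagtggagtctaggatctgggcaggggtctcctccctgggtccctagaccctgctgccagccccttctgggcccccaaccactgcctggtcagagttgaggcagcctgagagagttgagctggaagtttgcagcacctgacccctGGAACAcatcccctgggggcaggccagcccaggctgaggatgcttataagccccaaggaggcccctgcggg
The KLK3 and KLK2 promoters aligned with 79.2% identity (205 of 259 columns) and an unbroken shared run of 80 bases. KLK4 aligned with KLK3 at 47.3% and with KLK2 at 45.7%, with shared runs of at most 9 bases. Counting back from the start, the half-site lay at -170 to -165 in KLK3, at -176 to -171 in KLK2 and at -71 to -66 in KLK4. In KLK3 it opened the 15-base word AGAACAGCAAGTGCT, which is the proximal androgen response element described for this promoter, and in KLK2 the matching word was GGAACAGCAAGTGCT. Searched on both strands of the same window in 35116 RefSeq promoters, the pattern NGAACAGCAAGTGCT, taken from KLK3, occurred in 2 (0.0057%), KLK3 and KLK2, whereas NGAACA alone, which is contained in it, occurred in 10681 (30.4%). A match describes letters and does not show that a factor binds there.

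In DMSO, KLK3 was the most abundant of the 3 transcripts in LNCaP and KLK4 in 22Rv1. A 3′ tag is read from the transcript end and not along its length, so counts were not divided by transcript length. KLK3 stood at 1247, 1369 and 1039 CPM in the LNCaP DMSO libraries and at 13.7, 31.8 and 15.5 CPM in those of 22Rv1. KLK2 stood at 482, 534 and 533 CPM in LNCaP and at 35.3, 26.2 and 31.0 CPM in 22Rv1. Both genes were higher in every LNCaP library than in any 22Rv1 library. KLK4 took the opposite order, with 186, 157 and 139.8 CPM in LNCaP and 261, 236 and 225 CPM in 22Rv1, again without overlap. By edgeR's quasi-likelihood test, adjusted over the 7086 genes tested, KLK3 was higher in LNCaP than in 22Rv1 by 5.93 ± 0.21 (log2 fold change ± SE, adjusted p = 6.24e-25) and KLK2 by 4.06 ± 0.19 (adjusted p = 3.39e-21). KLK4 was lower in LNCaP, with a log2 fold change of -0.57 ± 0.15 (adjusted p = 0.00226). All 3 genes were therefore called, in a comparison that called 49% of all genes tested, 24% as higher and 25% as lower in LNCaP, and in which the libraries of 56.4% did not overlap. KLK3 ranked 4th by p and KLK2 13th of the 7086 genes, and KLK4 2031st. KLK3 met the filter on counts through LNCaP, the line where it is high.

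**Figure D1:**
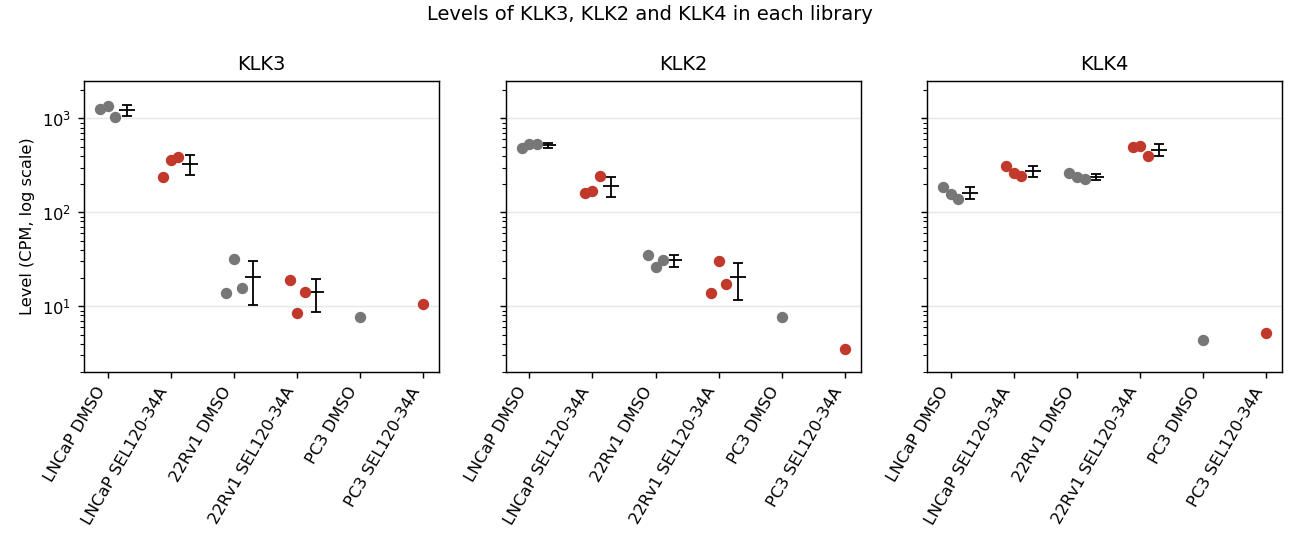
Level of KLK3, KLK2 and KLK4 in each library (points, CPM on a log axis) by cell line and treatment, with the mean ± SD of 3 libraries beside the points and single points for PC3. KLK3 fell from a mean of 1218 to 331 CPM in LNCaP, while KLK4 rose from 161 to 273.5 CPM in LNCaP and from 241 to 466 CPM in 22Rv1.

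SEL120-34A lowered KLK3 and KLK2 and raised KLK4 in LNCaP. KLK3 fell to 238, 363 and 391 CPM in the 3 inhibitor libraries, from 885, 523 and 743 raw counts under DMSO to 61, 134 and 185 under the inhibitor. Every inhibitor library lay below every DMSO library. Its mean level went from 1218 ± 167 to 331 ± 81.5 CPM (SD, n = 3), a log2 fold change of -1.82 ± 0.15 with a 95% interval from -2.12 to -1.51 (edgeR quasi-likelihood test, adjusted p = 1.35e-11).

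KLK2 fell to 159.9, 168 and 243 CPM under the inhibitor, from 342, 204 and 381 raw counts to 41, 62 and 115. The arms did not overlap for KLK2 either. The mean level went from 516 ± 29.8 to 190.3 ± 45.8 CPM (SD, n = 3), a log2 fold change of -1.37 ± 0.15 with an interval from -1.68 to -1.07 (edgeR adjusted p = 2.85e-08).

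KLK4 stood at 312, 266 and 243 CPM under the inhibitor, each above the highest DMSO library. Its raw counts were 132, 60 and 100 under DMSO and 80, 98 and 115 under the inhibitor, so that the separation appeared once library size was taken into account. The mean level went from 161 ± 23.3 to 273.5 ± 35.2 CPM (SD, n = 3), a log2 fold change of 0.77 ± 0.16 with an interval from 0.45 to 1.10 (edgeR adjusted p = 0.00276). After all libraries were thinned to the smallest total, the KLK4 log2 fold change was 0.67 and no longer passed (adjusted p = 0.0623), whereas KLK3 and KLK2 passed in that fit too.

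All 3 genes were thus called in LNCaP, against a background of 2.77% of genes tested, of which 1.99% were higher and 0.776% lower. The arms of 19.4% of all genes tested did not overlap. Among the 7086 genes KLK3 ranked 3rd by p, KLK2 8th and KLK4 55th, and by size of the fall KLK3 ranked 33rd and KLK2 74th.

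In 22Rv1, KLK4 rose and neither KLK3 nor KLK2 passed the test. KLK4 stood at 493, 511 and 394 CPM under the inhibitor, with every library above every DMSO library. The mean level went from 241 ± 18.4 to 466 ± 63.2 CPM (SD, n = 3), a log2 fold change of 0.96 ± 0.15 with an interval from 0.67 to 1.26 (edgeR adjusted p = 1.81e-05). It ranked 29th by p in a comparison that called 5.7% of genes, 4.15% as higher, and in which the arms of 23% did not overlap. KLK4 was one of 31 genes (0.437% of those tested) called higher in both lines.

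KLK3 was counted 7, 17 and 13 times under DMSO and 7, 2 and 5 times under the inhibitor in 22Rv1, which gave levels of 19.3, 8.58 and 14.3 CPM in the inhibitor libraries. The arms overlapped. Its log2 fold change was -0.40 with an interval from -1.34 to 0.54 (edgeR adjusted p = 0.705). KLK3 met the filter on counts through LNCaP and failed it when 22Rv1 was fitted alone, so these values are descriptions. KLK2 was counted 18, 14 and 26 times under DMSO and 5, 7 and 6 times under the inhibitor, at 13.8, 30.0 and 17.1 CPM, and these arms overlapped as well. Its log2 fold change was -0.67 with an interval from -1.41 to 0.07 (edgeR adjusted p = 0.325). With 1 library left out the log2 fold change ranged from -0.69 to -0.0098 for KLK3 and from -0.97 to -0.44 for KLK2, and after thinning they were -0.75 and -0.84. A change of either gene was not detectable in 22Rv1 at this depth.

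The difference between the responses of the lines was tested directly. For KLK3 the difference, LNCaP minus 22Rv1, was -1.41 on the log2 scale (interval from -2.50 to -0.33), with an unadjusted p of 0.0120 from edgeR that did not pass adjustment over all genes (adjusted p = 0.291, and from 0.189 to 0.642 over 21 alternative analyses). For KLK2 the difference was -0.70 (-1.56 to 0.16, edgeR adjusted p = 0.573), and for KLK4 it was -0.19 (-0.63 to 0.25, edgeR adjusted p = 0.796). None of the 3 genes was therefore called, where 0.734% of all genes tested were. The KLK3 difference rests on a gene that met the filter on counts through LNCaP, where it is high. The KLK4 interval leaves room for responses that differ by up to 0.63 on the log2 scale.

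**Figure D2:**
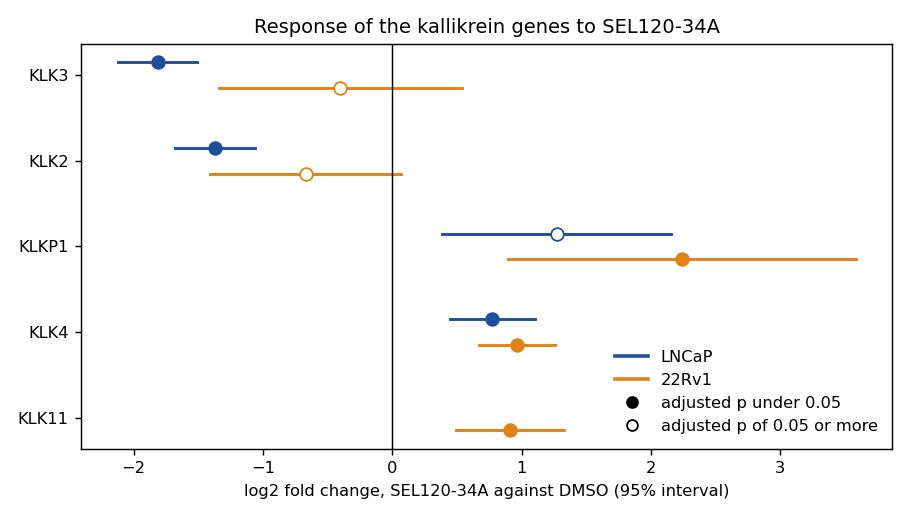
Log2 fold change of SEL120-34A against DMSO (points, with 95% intervals as lines) for KLK3, KLK2, KLKP1, KLK4 and KLK11 in LNCaP and 22Rv1, filled where the adjusted p was under 0.05. KLK3 and KLK2 lie to the left of 0 in LNCaP at -1.82 and -1.37, and KLK4 lies to the right of 0 in both lines at 0.77 and 0.96; KLK11 is drawn for 22Rv1 alone because LNCaP libraries held at most 2 of its counts.

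In PC3 the 3 genes were at or near the floor of detection. KLK3 was counted 7 times in the DMSO library and 6 times in the inhibitor library, KLK2 7 and 2 times, and KLK4 4 and 3 times. These counts correspond to 7.62 and 10.5 CPM for KLK3, 7.62 and 3.51 CPM for KLK2 and 4.36 and 5.26 CPM for KLK4. With 1 library per arm there was no replicate check and no test. The ratio of the inhibitor to the DMSO library was 1.38 for KLK3 (exact 95% interval 0.383 to 4.80), 0.460 for KLK2 (0.0466 to 2.42) and 1.21 for KLK4 (0.177 to 7.14), intervals that cover counting error only and all include 1. A change was not detectable in PC3 at this depth.

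Ordered by mean level, KLK3 and KLK2 were highest in LNCaP DMSO, then LNCaP with inhibitor, then 22Rv1 DMSO and 22Rv1 with inhibitor, whose libraries overlapped, and lowest in PC3. The PC3 inhibitor library overlapped the range of 22Rv1 with inhibitor for KLK3. For KLK4 the order began with 22Rv1 with inhibitor, followed by LNCaP with inhibitor and 22Rv1 DMSO, which overlapped, then LNCaP DMSO and PC3. LNCaP cells given the inhibitor still held more KLK3 and KLK2 than any 22Rv1 library, and as much KLK4 as untreated 22Rv1 within the spread of the libraries. Loss of RNA per cell and loss of cells that express a gene cannot be told apart in these bulk samples.

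The make-up of the kallikrein counts shifted towards KLK4 in LNCaP and 22Rv1, although in 22Rv1 only the KLK4 change was called. KLK4 supplied 7.62% to 9.71% of the summed KLK2, KLK3 and KLK4 counts in the LNCaP DMSO libraries and 27.7% to 43.96% in the inhibitor libraries. In 22Rv1 it supplied 80.3% to 84.2% under DMSO and 92.6% to 93.7% under the inhibitor. Neither line showed overlap between arms. In PC3 the share was 22.2% of 18 counts and 27.3% of 11 counts. KLK2 and KLK3 summed, which does not depend on how reads were divided between these paralogs, went from 1734 ± 166 to 521 ± 118 CPM in LNCaP (SD, n = 3), or from 0.150% to 0.176% of all counts in a library to 0.0350% to 0.0577%. The sum of all 3 genes had a mean of 1895 CPM under DMSO and 794 CPM under the inhibitor in LNCaP, a log2 ratio of -1.26, against 292 and 500.3 CPM in 22Rv1, a log2 ratio of 0.78. These sums were not tested.

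**Figure D3:**
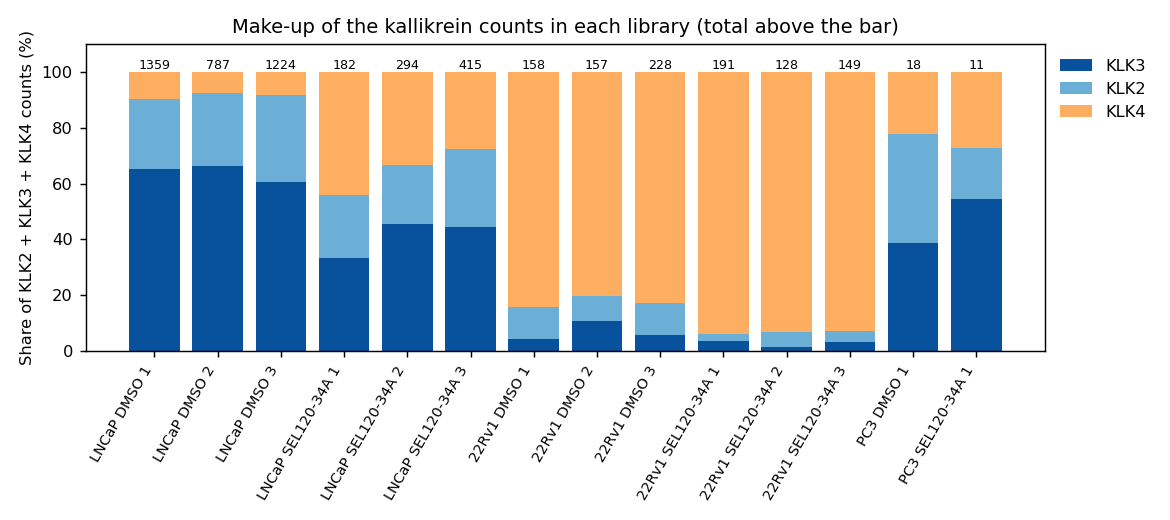
Share of the summed KLK2, KLK3 and KLK4 counts held by each gene in every library (stacked bars, percent, with the summed count above each bar). The KLK4 part grows from 7.62% to 9.71% in LNCaP DMSO to 27.7% to 43.96% with inhibitor and from 80.3% to 84.2% to 92.6% to 93.7% in 22Rv1; the PC3 bars rest on 18 and 11 counts.

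Within a library the ratio of one gene to another does not depend on library size. The ratio of KLK3 to KLK2 counts was 2.37 ± 0.361 in LNCaP DMSO and 1.75 ± 0.359 under the inhibitor (SD, n = 3), a log2 difference of -0.44 (two-sided exact permutation test, p = 0.2). With 3 against 3 the smallest p possible is 0.1, so the test could not reach 0.05 at any size of difference. The ratio of KLK4 to KLK3, examined after the values were seen, ranged from 0.115 to 0.149 in LNCaP DMSO and from 0.622 to 1.31 under the inhibitor. In 22Rv1 it ranged from 7.41 to 19 under DMSO and from 25.6 to 59.5 under the inhibitor. The ratio of KLK4 to KLK2 ranged from 0.263 to 0.386 and from 1 to 1.95 in LNCaP, and from 7.27 to 9 and from 17 to 35.8 in 22Rv1. Each of these 4 comparisons was without overlap and gave p = 0.1 by the exact permutation test, the smallest p the design allows. In LNCaP this outcome was fixed by the levels, since KLK4 rose and KLK3 and KLK2 fell without overlap. In 22Rv1 the ratios reuse the counts behind the KLK4 rise, so none of the 4 comparisons is separate support.

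The kallikrein family comprised 17 annotated features, of which 14 had at least 1 count and 6 could be tested. By edgeR 1 rose (KLK4) and 2 fell (KLK3 and KLK2) in LNCaP, where 1.99% of all genes tested rose and 0.776% fell. In 22Rv1 3 rose (KLK4, KLK11 and KLKP1) and 0 fell, where 4.15% of all genes tested rose and 1.55% fell. That count of 0 is near the background. These counts include KLK2, KLK3 and KLK4, which were selected beforehand, and KLKP1, which met the filter on counts only through inhibitor libraries. In 22Rv1 DESeq2 called 2 as higher and limma 1, and neither these nor edgeR at an unadjusted p under 0.05 counted any as lower. KLK1 and KLK11 entered the test through 22Rv1 and had at most 2 counts in any LNCaP library, so no fold change is given for them in LNCaP. KLK11 (chromosome 19, 51022216 to 51028039, minus strand), a trypsin-like kallikrein, stood at 84.4, 107 and 96.6 CPM in the 22Rv1 DMSO libraries and at 168, 206 and 168 CPM under the inhibitor, without overlap. It rose by 0.91 ± 0.21 on the log2 scale (edgeR adjusted p = 0.00441) and passed in 21 of 22 alternative analyses, the exception being limma-trend (adjusted p = 0.215). The 22Rv1 arms of 23% of all genes tested did not overlap. LNCaP DMSO held 2 KLK11 counts in all against 181 in 22Rv1 DMSO, a ratio of 86.9 after scaling (exact 95% counting interval 23.7 to 723).

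KLKP1 (ENSG00000290915.1, 50882096 to 50896398, minus strand), which is expressed from a pseudogene between KLK2 and KLK4, had at most 13 counts in any library. It stood at 1.96, 7.49 and 1.19 CPM in 22Rv1 DMSO and at 11.02, 25.8 and 14.3 CPM under the inhibitor. These levels rest on 1, 4 and 1 raw counts against 4, 6 and 5. Its log2 fold change of 2.24 (edgeR adjusted p = 0.0365) passed in 5 of 19 alternative analyses. KLKP1 met the filter on counts only through inhibitor libraries, so the filter favoured a rise and the call is not separate support. In LNCaP it stood at 15.5, 10.5 and 9.79 CPM under DMSO and at 23.4, 35.2 and 27.5 CPM under the inhibitor, with a log2 fold change of 1.27 that did not pass (edgeR adjusted p = 0.127). KLK1, the tissue kallikrein, had 0 counts in all LNCaP libraries, was counted 94 times in the 22Rv1 DMSO libraries and was at least 30.1-fold higher there against a floor of 3 counts over the LNCaP DMSO group. Its level in 22Rv1 was 50.04 ± 7.48 CPM under DMSO and 53.1 ± 4.04 CPM under the inhibitor (SD, n = 3; edgeR adjusted p = 0.904). KLK15 had 16 counts in LNCaP DMSO against 2 in 22Rv1 DMSO. KLK6, with 10 and 4 counts in the PC3 libraries, and KLK10, with 3 and 5, were the most counted of the remaining members there, KLK5, KLK7, KLK8, KLK12 and KLK14 had at most 3 counts in any library, and KLK9 and KLK13 had none.

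**Figure D4:**
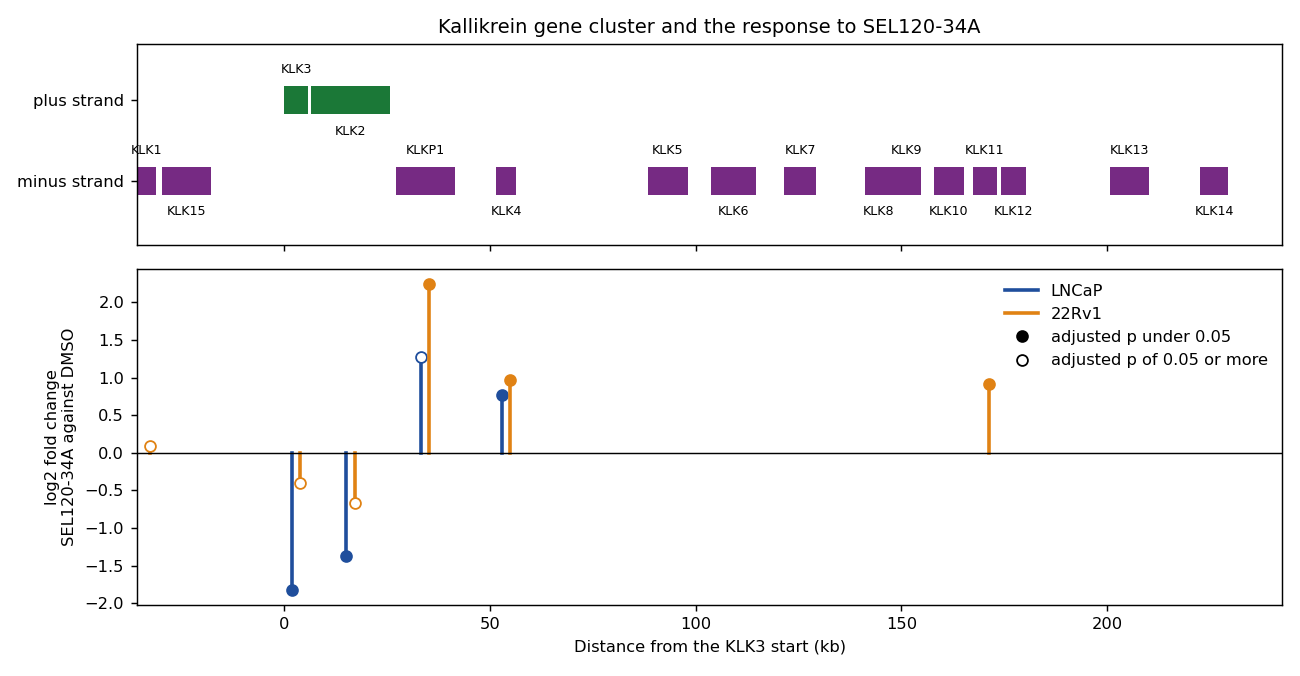
Upper panel, gene bodies of the kallikrein family by distance from the KLK3 start (kb) and strand; lower panel, log2 fold change of SEL120-34A against DMSO for the family members tested, LNCaP in blue and 22Rv1 in orange, drawn side by side at the middle of each gene and filled where the adjusted p was under 0.05. The plus-strand neighbours KLK3 and KLK2 point down in LNCaP (-1.82 and -1.37), and KLK4 on the minus strand points up in both lines (0.77 and 0.96); KLK1 and KLK11 are drawn for 22Rv1 alone.

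The wider neighbourhood was also examined. Of 81 annotated genes within 500 kb of KLK3, 36 had at least 1 count. Outside the family 4 genes could be tested, and 0 were called in LNCaP by edgeR, also at an unadjusted p under 0.05, or by DESeq2 or limma, where 2.77% of all genes tested were called by edgeR. In 22Rv1 CLEC11A, a secreted growth factor gene, rose by 1.44 (edgeR adjusted p = 0.00755) and JOSD2, a deubiquitinase gene, had a log2 fold change of -1.18 (edgeR adjusted p = 0.0495), both on 38 counts or fewer per 22Rv1 library. JOSD2 passed in 4 of 22 alternative analyses. DESeq2 called 1 of the 4 as higher in 22Rv1 and limma called 0. Of all genes tested edgeR called 5.7% in that line.

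FOXA1, a pioneer factor of prostate epithelium, had log2 fold changes of -0.28 in LNCaP (edgeR adjusted p = 0.375) and -0.44 in 22Rv1 (edgeR adjusted p = 0.0632). In 22Rv1 its arms did not overlap, as for 23% of all genes tested. It stood there at 388 to 475 CPM under DMSO and 296 to 357 CPM under the inhibitor. It passed as lower in 6 of 22 alternative analyses. Those of HOXB13, a prostate homeobox factor, were 0.24 (edgeR adjusted p = 0.509) and -0.02 (edgeR adjusted p = 0.964). Of 23 listed cofactors of androgen-regulated transcription, 18 were tested, 0 were called in LNCaP, where 2.77% of all genes were, and 0 rose and 2 fell in 22Rv1, where 4.15% of all genes rose and 1.55% fell. Those that fell were the chaperone genes HSP90AA1 (-0.88, edgeR adjusted p = 3.81e-05) and HSP90AB1 (-0.53, edgeR adjusted p = 0.0150), whose products fold steroid receptors among other clients. At an unadjusted p under 0.05 edgeR counted 2 higher and 3 lower in LNCaP and 2 higher and 7 lower in 22Rv1. DESeq2 and limma called 0 in LNCaP, and 0 higher and 2 and 1 lower in 22Rv1. The list had a median log2 fold change of 0.08 in LNCaP and -0.46 in 22Rv1, beside medians over all genes tested of 0.00076 and 0.0025.

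Of 38 other androgen-induced genes listed, 26 were tested. In LNCaP 2 rose, the lipid phosphatase gene PLPP1 (0.65, edgeR adjusted p = 0.0162) and the fatty acid elongase gene ELOVL5 (0.64, edgeR adjusted p = 0.0229), which passed in 16 and 12 of 22 alternative analyses. Over all genes tested 1.99% rose. By edgeR 0 fell, beside 0.776% of all genes tested, so this count of 0 is near the background and says nothing particular about the list, with 4 lower and 7 higher at an unadjusted p under 0.05, and DESeq2 and limma called 0 in either direction. In 22Rv1 3 rose, TPD52 (1.04, edgeR adjusted p = 0.0014), PMEPA1 (0.86, edgeR adjusted p = 0.00436) and TMPRSS2 (1.89, edgeR adjusted p = 0.0246), and 1 fell, the acyl-CoA synthetase gene ACSL3 (-0.80, edgeR adjusted p = 0.0246). Of all genes tested 4.15% rose and 1.55% fell in that line. TMPRSS2 passed in 15 of 21 alternative analyses and ACSL3 in 17 of 22. TMPRSS2 met the filter on counts through LNCaP and not through 22Rv1. In 22Rv1 DESeq2 called 3 as higher and 0 as lower, and limma 1 as higher and 2 as lower. The median log2 fold change over this list was 0.13 in LNCaP and 0.11 in 22Rv1. In DMSO 16 of the 26 were higher and 5 lower in LNCaP than in 22Rv1, beside 24% and 25% of all genes tested, with a median of 1.28.

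Of 33 listed activators, inhibitors and substrates of these proteases, 12 were tested. In LNCaP 2 rose, both genes for proteins that prostate-specific antigen can cleave: IGFBP3, an insulin-like growth factor binding protein, by 3.10 (edgeR adjusted p = 1.35e-11), and FN1, fibronectin, by 1.96 (edgeR adjusted p = 9.21e-09). Leaving out 1 library moved the IGFBP3 value between 2.61 and 4.29, the latter without LNCaP DMSO replicate 1, and it passed each time. In 22Rv1 2 rose, both genes for membrane serine proteases: HPN, hepsin, by 1.26 (edgeR adjusted p = 0.0135), and TMPRSS2 by 1.89 on 2 to 10 counts per library. TMPRSS2 met the filter on counts through LNCaP alone. By edgeR 0 of the 12 fell in either line, with 0 in LNCaP and 1 in 22Rv1 lower at an unadjusted p under 0.05, DESeq2 called 0 and limma 1 in 22Rv1. Over all genes tested 1.99% rose and 0.776% fell in LNCaP, and 4.15% rose and 1.55% fell in 22Rv1. The counts of 0 are near these shares and say nothing particular about the list. Their median log2 fold changes were 0.33 in LNCaP and 0.15 in 22Rv1. Of the 7 Mediator kinase module genes 4 were tested and none was called in a treatment comparison. Of all genes tested 2.77% were called in LNCaP and 5.7% in 22Rv1, so this absence is near the background. The log2 fold change of CDK19 was 0.52 in LNCaP (edgeR adjusted p = 0.361) and 0.47 in 22Rv1 (edgeR adjusted p = 0.599), and that of CCNC, cyclin C, was -0.15 (edgeR adjusted p = 0.838) and 0.06 (edgeR adjusted p = 0.926). At an unadjusted p under 0.05 edgeR counted 1 of the 4 in LNCaP and 0 in 22Rv1, and DESeq2 and limma called 0. CDK8 and MED12 had too few counts to test.

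The genes whose levels ran most like those of KLK3 over the 14 libraries were sought by the root mean square difference of centred log2 CPM among 4468 genes. These were genes with a symbol and with a minimum mean count in LNCaP DMSO, the group where KLK3 and KLK2 are highest. Genes high only in 22Rv1 or PC3 were therefore outside the comparison, and the ranks below depend on this choice. For KLK3 the most similar genes were NDN (0.82), SPON2 (0.86), KLK2 (0.88), KCNC2 (0.91) and ALOX15 (0.92). For KLK2 they included NDN (0.67), STEAP2 (0.69), STXBP5L (0.70) and MME (0.76). KLK3 ranked 16th for KLK2. KLK4 ranked 3742nd for KLK3, with a difference of 2.89, and 3240th for KLK2, with 2.20. None of the 7 genes named here outside the family was called as lower in LNCaP, where 0.776% of all genes tested were. This count is near that share and says nothing particular about these genes. MME, which encodes the peptidase neprilysin, rose by 0.48 (edgeR adjusted p = 0.0463, passed in 7 of 22 alternative analyses). SPON2 had a log2 fold change of -0.30 (edgeR adjusted p = 0.251), and the other 5 had edgeR adjusted p from 0.196 (KCNC2) to 0.933 (ALOX15). The LNCaP arms did not overlap for SPON2, lower under the inhibitor, or for MME, KCNC2 and STEAP2, higher under it. Those of 19.4% of all genes tested did not overlap. Near KLK4, looked up after the values were seen, was KRTCAP3 (0.46). The 14 libraries differ in cell line and depth, and a likeness can follow the differences between lines, so these values are descriptions.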

How the data were processed

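Total RNA of 14 samples was profiled by BRB-seq 3′ tag sequencing. The authors aligned reads with STARsolo to GRCh38.p13 with GENCODE release 43 and deposited raw counts per gene and log2 CPM values; collapsing of molecular identifiers is not given in the sources used here. Counts of LNCaP and 22Rv1 (12 libraries, 4 group means) were tested with edgeR 4.0.16 (TMM, filterByExpr, quasi-likelihood F-test, Benjamini-Hochberg over 7086 genes, threshold 0.05; common biological coefficient of variation 11.1%, 8 residual degrees of freedom). The spread of each gene was moderated towards that of other genes, with a median of 32.5 prior degrees of freedom. PC3 was not tested. CPM used TMM factors over all 14 libraries, which gave the deposited log2 CPM of 9638 genes within 5e-14. Total counts of 246063 to 909176 put a floor of 3 counts at 3.30 to 12.2 CPM. Standard errors and 95% intervals of edgeR log2 fold changes were back-calculated from the fold change and its F statistic, so they are approximate. Intervals on ratios of counts, and floors, cover counting error only and treat counts as independent. Ratios were tested by exact permutation (scipy 1.17.1). Gene coordinates came from GENCODE release 44. No libraries were duplicates (chi-square per degree of freedom 1.43 to 3.02).

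The members, the gene lists and the rule for named genes (the members, counted family genes, list genes called in a treatment comparison, FOXA1, HOXB13 and 4 kinase module genes, and the 5 genes most like KLK3 and KLK2) were chosen with earlier results of these data known. Some genes that this rule or the lists hold are not reported here. The edgeR procedure was tested on simulated data. Alternatives used a replicate block, other scalings and filters, single lines, PC3 added, thinned counts, DESeq2 1.42.0, limma 3.58.1 and each library left out.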

Additional observations from a re-analysis of the deposited data

Results flagged for a closer look

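The responses of 4 listed genes to SEL120-34A differed between LNCaP and 22Rv1 by edgeR's test of the difference itself, which called 0.734% of all genes. For IGFBP3 the difference, LNCaP minus 22Rv1, was 3.27 on the log2 scale (adjusted p = 0.000129), from mean levels of 50.7 and 454 CPM in LNCaP and 38.8 and 33.9 CPM in 22Rv1 under DMSO and inhibitor. Without LNCaP DMSO replicate 1 it was 4.48. For FN1 the difference was 2.07 (adjusted p = 5.07e-05), from 155 and 607 CPM in LNCaP and 273 and 247 CPM in 22Rv1. Both passed in 20 of 21 alternative analyses and did not pass with limma-trend (adjusted p = 0.108 for FN1 and 0.0666 for IGFBP3). For HSP90AA1 the difference was 0.78 (adjusted p = 0.0461), and it passed in 8 of 21 alternatives, with adjusted p up to 0.211. For SPDEF, a prostate epithelial transcription factor that was in both the androgen-induced and the cofactor list and was named after its values were seen, the difference was -1.74 (adjusted p = 0.0265). Its mean levels were 111 and 64.3 CPM in LNCaP and 31.6 and 59.5 CPM in 22Rv1 under DMSO and inhibitor, and neither line's own change passed. The difference passed in 13 of 21 alternatives, with adjusted p up to 0.213 without 22Rv1 SEL120-34A replicate 1, and did not pass with DESeq2 or limma-trend. The cause of these differences was not tested. No difference of KLK2, KLK3 or KLK4 between the lines passed.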

How the results depend on the processing

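KLK3 and KLK2 in LNCaP passed in all 22 alternatives, with log2 fold changes from -1.94 to -1.67 and from -1.61 to -1.28 and a highest adjusted p of 0.0267 and 0.0294 (limma-trend). KLK4 in 22Rv1 passed in all 22, from 0.81 to 1.09. KLK4 in LNCaP passed in 21 of 22 (adjusted p up to 0.0485 with 1 library left out) and not after thinning, at 0.67 (adjusted p = 0.0623). KLK3 and KLK2 in 22Rv1 and the differences between lines passed in none; fitting each line alone gave no KLK3 value in 22Rv1, where it failed the filter. The log2 difference in the ratio of KLK3 to KLK2 ranged from -0.60 to -0.33 with 1 library left out, and its test could not pass under any alternative. Library totals in place of TMM shifted the median of all genes by -0.0829 in LNCaP and -0.141 in 22Rv1, where KLK4 stood at 0.68 and 0.81.

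A replicate block (KLK3 -1.82, KLK2 -1.39 and KLK4 0.79 in LNCaP, KLK4 0.95 in 22Rv1) changed no call of the 3 genes and called 240 and 450 genes. Same-numbered libraries correlated at -0.0716 to 0.105 over 18 pairs, and differently numbered ones at -0.122 to 0.0867. With 3 libraries per group and counting error at this depth, such correlations cannot settle whether the numbers pair the samples. Genes called were 196 in LNCaP (109 thinned, 90 with DESeq2, 41 with limma, 87 without LNCaP SEL120-34A replicate 2), 404 in 22Rv1 (260 unfiltered, 229 with DESeq2, 201 with limma, 158 without 22Rv1 SEL120-34A replicate 2), 52 for the difference (32 thinned, 18 with DESeq2, 5 with limma, 24 without LNCaP SEL120-34A replicate 1) and 3473 between lines (2036 thinned). Library totals turned 141 higher and 55 lower in LNCaP into 99 and 90, 294 and 110 in 22Rv1 into 144 and 231, and 1701 and 1772 between lines into 1211 and 2362.

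Genes that did not pass changed sign as follows, and the cause was not tested. In 22Rv1 CCNC was -0.0837 with library totals, -0.00398 unfiltered and -0.12 thinned, CDK19 -0.18 and HOXB13 0.0902 thinned, and KLK1 -0.0563 with library totals. ALOX15 in LNCaP was 0.21 thinned. With 1 library left out the ranges were -0.12 to 0.23 for CCNC, -0.20 to 0.14 for HOXB13 and -0.0174 to 0.18 for KLK1 in 22Rv1, and -0.26 to 0.0473 for ALOX15 and -0.34 to 0.0061 for NDN in LNCaP. Depth limits KLK3 and KLK2 in 22Rv1 and all 3 genes in PC3.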
